A study of Homo sapiens with 35 samples.

Results

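In untreated U-87 MG cells, a human glioma cell line, 246 genomic sites carried a p52 ChIP-seq peak in both replicate lists, out of 665 merged sites with a peak in either list. The sites were chosen by these measured values themselves: on chromosomes 1 to 22 and X, peaks of the 2 untreated p52 lists were joined where they overlapped by 1 bp or more, and a joined site was kept where both lists had a peak. The untreated folds, q-values and ranks given below are therefore a description of how the sites were selected. The remaining 419 sites, seen in a single list, were kept aside for comparison, as were the 2828 p52 sites that had a peak in both lists of TWEAK-treated control cells and were none of the 246.

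The sites were looked up in 10 groups of 2 peak lists each. Control U-87 MG cells, untreated or given the cytokine TWEAK at 10 ng/ml for 48 h, were profiled with antibodies against NFKB2 (p52), ETS1 and RNA polymerase II. TWEAK-treated ETS1 KD cells were profiled for p52 in 2 groups, one for each guide RNA (guide 1 and guide 2), and for RNA polymerase II with no guide named. TWEAK-treated NFKB2 KD cells were profiled for RNA polymerase II. According to the study's methods, ETS1 KD cells were made with the lentiviral CRISPR vector lentiCRISPRv2. The study calls the control cells CRISPR controls and lists lentiCRISPRv2 for the CRISPR controls of its mouse experiment. Whether the control cells profiled here carried the same vector, and whether a knockdown culture was a pool or a clone, is not given in the sources used here. RNA-seq of polyadenylated RNA covered control untreated, control TWEAK, ETS1 KD TWEAK and NFKB2 KD TWEAK cells with 3 libraries each.

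TWEAK is a cytokine of the tumour necrosis factor family that signals through its receptor Fn14 (TNFRSF12A). It is known for activating non-canonical NF-κB signalling, where the kinase NIK promotes cleavage of the NFKB2 precursor p100 into p52. The p52 protein enters the nucleus with a partner such as RELB and binds κB elements, short GC-rich motifs found at enhancers and promoters of inflammatory and survival genes. Without stimulation most NFKB2 protein is kept in the cytoplasm as p100. ChIP-seq also returns peaks over tandem repeats, such as the alpha satellite of centromeres, and the GGAAT satellites beside them. Reads from such repeats cannot be placed at a single copy, and the reference assembly holds fewer copies than a chromosome does.

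The letters under the sites are shown first, since they separate the 246 sites from the p52 sites of TWEAK-treated cells. All sequences are of the hg38 reference, plus strand, written 5′ to 3′. The first pair are stretches of satellites made of GGAAT units, one from a site on chromosome 5 that ranked 11 and 12 in the untreated lists and one inside an intron of SH3RF3 on chromosome 2. Capitals mark GGAAT or its reverse complement ATTCC.
chr5:49602074-49602133: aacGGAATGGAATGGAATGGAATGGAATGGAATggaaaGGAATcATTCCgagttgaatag
chr2:109199596-109199655: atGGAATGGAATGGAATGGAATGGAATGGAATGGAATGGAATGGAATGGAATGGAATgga

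The second pair comes from the tandem array of chromosome 1, at a site that ranked 23 and 20, and shows 60 bases followed by the 60 bases that start 169 bp further on. Capitals mark the 39 bases (65%) that are equal in both.
chr1:124673195-124673254: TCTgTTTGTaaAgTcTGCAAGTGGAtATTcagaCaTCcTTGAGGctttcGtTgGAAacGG
chr1:124673364-124673423: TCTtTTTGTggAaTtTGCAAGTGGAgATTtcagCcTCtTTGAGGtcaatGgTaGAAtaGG

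The next 4 sequences are all of the sites in which the κB consensus lay within the 200 bp around the summit of the stronger untreated peak. Capitals mark the match.
chr21:8250716-8250755: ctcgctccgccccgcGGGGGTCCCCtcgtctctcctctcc
chr22:11815636-11815675: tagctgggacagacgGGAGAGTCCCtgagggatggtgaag
chr21:8446815-8446854: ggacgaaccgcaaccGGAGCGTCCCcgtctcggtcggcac
chr4:49513569-49513608: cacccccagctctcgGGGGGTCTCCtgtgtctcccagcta

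The last 3 are taken from the summit region of the PGK1 promoter site, of a site in an NPAS4 intron, and of a site in the repeated region of chromosome 21. Capitals mark CCAAT, the box bound by NF-Y, in the first, no motif in the second, and GGGCGG, the box bound by SP and KLF factors, in the third.
chrX:78104096-78104155: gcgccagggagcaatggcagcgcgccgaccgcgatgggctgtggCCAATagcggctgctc
chr11:66421792-66421851: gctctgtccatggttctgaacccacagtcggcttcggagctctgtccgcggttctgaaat
chr21:8212478-8212537: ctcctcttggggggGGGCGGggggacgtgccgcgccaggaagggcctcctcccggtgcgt

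Repeated DNA made up nearly all of the untreated p52 sites. A tandem repeat was called where at least 40% of bases were equal to those at a lag within a narrow range around the alpha satellite unit length. With sites of the GGAAT class set apart first, it underlay 111 of 246 sites (45.1%, 95% exact interval 38.8 to 51.6). With GGAAT sites included, 153 sites (62.2%) met the 40% limit. Some lags in the range are whole multiples of the GGAAT unit, so GGAAT arrays can meet the limit without an alpha satellite unit. The 153 sites are therefore not a count of repeats with a unit of alpha satellite length. The GGAAT class, with at least 8 copies of GGAAT in the 200 bp around the summit, held 68 sites (27.6%, 22.2 to 33.7). A further 58 sites (23.6%, 18.4 to 29.4) held other repeated sequence, and 9 (3.66%, 1.69 to 6.83) were single-copy. Among the 2828 other p52 sites of TWEAK-treated cells the shares were 1.31%, 0.0354%, 9.12% and 89.5% in the same order. These intervals and those below cover counting error over sites only, since sites are not replicates, and no test was made between sets of sites.

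The number of times each 31-base word of the 200 bp occurs in the assembly gave the same picture without any motif. The median copy number was 1 at 22 of the 246 sites (8.94%), above 10 at 138 (56.1%) and above 100 at 99 (40.2%). For the single-list untreated sites the share with a median of 1 was 7.88%, and for the other TWEAK sites it was 89.6%. The median over sites was 21 copies, against 18 for single-list sites and 1 for the other TWEAK sites. At least 8 GGAAT copies were found at 10.3% of the single-list sites, below the 27.6% of the 246. Within 100 kb of an assembly gap of at least 1 kb lay 143 of the 246 sites (58.1%), 39.6% of the single-list sites and 1.77% of the other TWEAK sites.

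The sites were packed into few regions. Joining sites less than 1 Mb apart gave 56 clusters, and the 13 clusters with at least 5 sites held 182 of 246 (74.0%). The largest, chr1:121771642-125182722, spans the centromere of chromosome 1 and held 50 sites, 47 of them tandem repeats, with a median copy number of 4661. The second, chr21:8207091-8469987, lies on the short arm of chromosome 21, where the annotation places 5.8S ribosomal RNA genes, and held 30 sites, 26 of them of the other repeated class with a median of 8 copies. The third, chr4:49091356-49710794, held 21 sites, 19 of them GGAAT satellite. Clusters of 17, 14 and 11 sites followed at chr5:49601494-49666860, chr1:143192780-143274231 and chr10:41839503-42079948. By chromosome, 71 sites were on chromosome 1, 31 on chromosome 21, 22 on chromosome 4, 19 on chromosome 16 and 18 on chromosome 5.

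**Figure D1:**
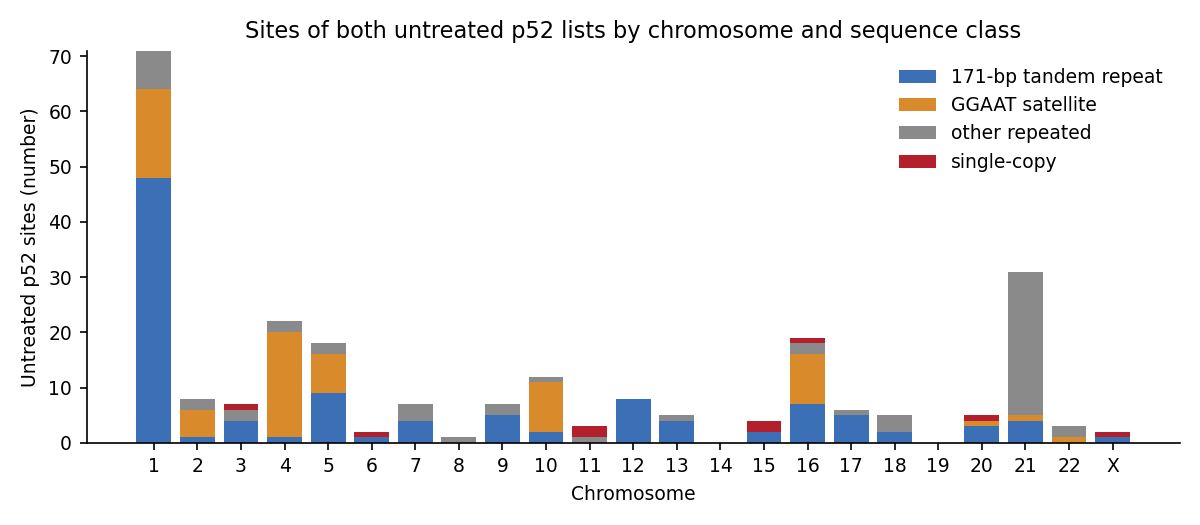
Number of p52 sites of untreated cells (y axis) on each chromosome (x axis), stacked by sequence class. Chromosome 1 holds 71 sites, mostly tandem repeat, chromosome 21 holds 31, mostly of the other repeated class, and chromosome 4 holds 22, mostly GGAAT satellite.

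Few of the sites were near genes. Of the 246 sites, 199 (80.9%, 75.4 to 85.6) were intergenic, 30 lay in introns, 6 in exons and 11 (4.47%, 2.25 to 7.86) within 1000 bp upstream to 100 bp downstream of an annotated start. The promoter share was 5.49% for single-list sites and 21.4% for the other TWEAK sites, of which 44.5% were intronic and 29.0% intergenic. The median distance from a site to the nearest protein-coding start was 763498 bp, compared with 14292.5 bp for the other TWEAK sites. Within 10 kb of such a start lay 9 sites and within 100 kb 42, while 109 were more than 1000000 bp away. Only 2 sites fell in promoters of protein-coding genes, those of PGK1 and EEF1A1. The other promoter sites belonged to RNU6-1, a U6 spliceosomal RNA gene, to the long non-coding RNAs ROCK1P1 (2 sites) and FAM230C, and to a ribozyme and transcripts without a settled type.

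Most of the untreated peaks were shallow. Fold enrichment, the peak summit against local background as MACS2 gives it, had a lowest, median and highest value of 1.09, 2.75 and 24.0 at the 246 sites in replicate 1 and of 1.10, 2.79 and 95.8 in replicate 2. It was below 5 in both lists at 212 sites (86.2%) and below 2 in both at 32, and reached 5 in both at 19 sites. The −log10 q-value ran from 1.06 over a median of 9.79 to 753 in replicate 1 and from 1.15 over 9.82 to 836 in replicate 2. Single-list sites had higher median folds, 3.19 and 3.74, with lower median −log10 q-values, 4.69 and 3.88. The folds of the 246 sites ranked alike in both lists, with a Spearman rho of 0.894 across sites, which share libraries and repeat families and are not replicates.

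A strong q-value at many of these sites went with a small fold. The site with the best mean rank, chr3:93470456-93470711, ranked 2 in both lists with −log10 q of 239 and 382 and had folds of 1.25 and 1.34. The next best after the PGK1 promoter, chr1:143214296-143214850, ranked 4 in both lists with folds of 1.75 and 1.79. Of the 12 sites with the best mean rank, 9 others were repeats on chromosomes 1, 5 and 18 with folds from 1.34 to 2.95, including both sites at the ROCK1P1 promoter, where folds were 2.44 and 2.19 at one and 2.83 and 2.74 at the other. Just inside the selection, chr1:125178900-125179362 had −log10 q of 1.06 and 1.22 with folds of 1.09 and 1.10. Just outside it, the single-list site with the strongest q-value, chr17:26603805-26604018, had a −log10 q of 111, a fold of 2.24 and rank 10 in replicate 1 and no peak in replicate 2. The next of this kind, chr1:143219716-143219917 and chr1:121767545-121767754, had folds of 1.90 and 2.93 in replicate 1 alone.

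**Figure D2:**
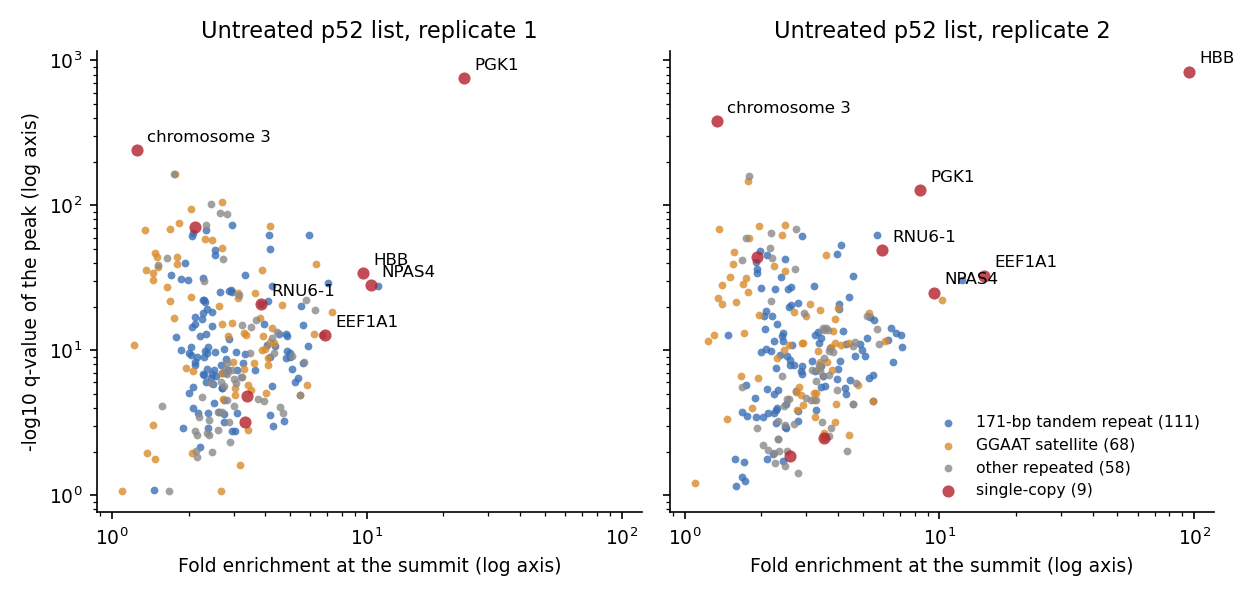
The −log10 q-value (y axis) against the fold enrichment at the summit (x axis) of the 246 sites in untreated replicate 1 (left) and replicate 2 (right), both axes logarithmic, coloured by sequence class. Most repeated sites lie below a fold of 5 at any q-value, and the highest folds are those of PGK1 (24.0 in replicate 1) and HBB (95.8 in replicate 2).

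The κB element was almost absent from the untreated sites. Its consensus (GGG, then A or G, 2 bases of any kind, 2 of C or T, and CC) was searched on both strands within 200 bp centred on the summit and matched at 4 of 246 sites (1.63%, 0.445 to 4.11). It matched at 1.67% of single-list sites, at 76.7% of the other TWEAK sites and at 2.54% of 291103 windows of 200 bp laid every 10 kb along the genome. Its stricter form, with T at the sixth and seventh base, matched at none of the 246 sites, which allows a share of up to 1.49%, and at 65.2% of the other TWEAK sites. All 4 matching sites were in repeats. They had untreated folds of 3.25 and 3.49 and of 2.19 and 3.51 on chromosome 21, of 5.65 and 4.60 on chromosome 22 and of 2.88 and 3.95 on chromosome 4. A match is a description of letters and not evidence of binding.

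Motifs of other factors were also no more frequent than in the other TWEAK sites, apart from those that satellites contain. TGANTCA, the element of AP-1 factors, was found at 2.85% of the 246 sites, 24.7% of the other TWEAK sites and 6.19% of genome windows. GGGCGG was found at 4.88%, 16.6% and 2.85%, and CCAAT at 15.9%, 23.4% and 27.1%. The ETS motif CCGGAAG was present at 1 site (0.407%), 2.16% of other TWEAK sites and 0.443% of windows. Its core AGGAAG was present at 23.6%, 24.5% and 18.2%. The E-box CACGTG was found at 0.407%, 3.39% and 1.88%, and the cyclic AMP response element (TGACG followed by TCA) at none of the 246 sites and 0.566% of the other TWEAK sites. GGAATG, listed for TEAD factors, stood at 30.9% of the 246 sites against 13.5% and 10.9%, but it overlaps the repeated unit GGAAT.

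**Figure D3:**
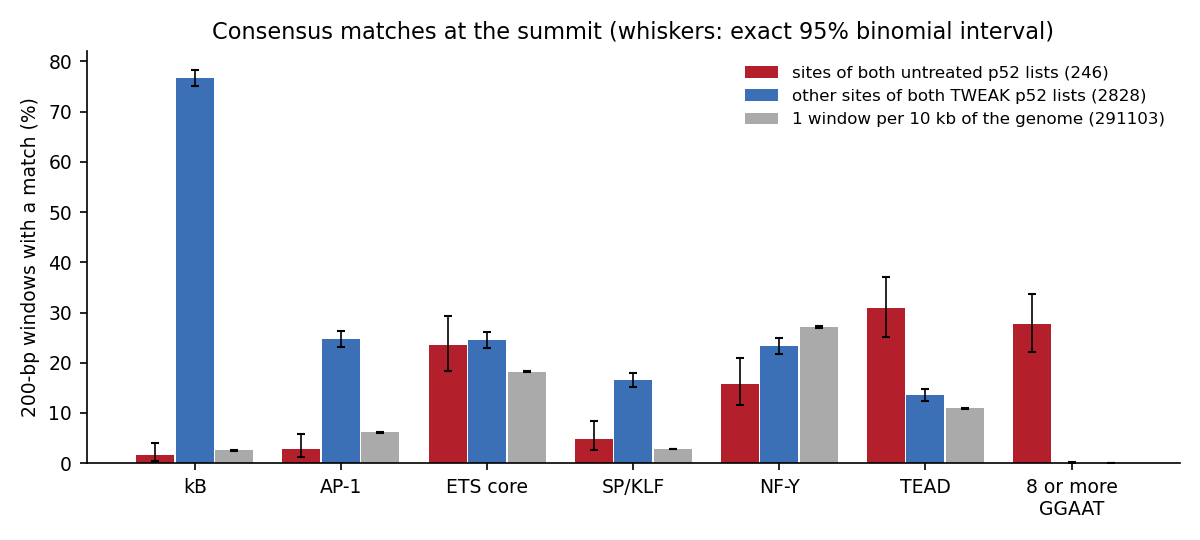
Percent of 200-bp windows at the summit (y axis) with a match to each of the motifs on the x axis, on either strand, for the 246 sites, the other TWEAK p52 sites and genome windows, with exact 95% intervals as whiskers. The κB consensus is at 1.63% of the 246 sites and 76.7% of the other TWEAK sites, and 8 or more GGAAT copies are at 27.6% and 0.0354%.

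After TWEAK, 89 of the 246 sites (36.2%, 30.2 to 42.5) had a peak in both p52 lists of control cells, 183 (74.4%) in at least 1 and 63 (25.6%) in neither. Of the single-list untreated sites, 9.07% had a peak in both TWEAK lists. The replicates differed widely, with a peak at 176 sites in replicate 1 and at 96 in replicate 2, although replicate 2 held 11761 peaks against 3579 in replicate 1. Sequencing depth of the ChIP libraries is unknown from these lists. A missing peak means that none was called at the authors' threshold, and peaks of separate lists are not comparable in height.

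Within the TWEAK lists, sites with a peak were ranked by q-value, as a percentile in which 100 is the strongest peak of that list. They had a median of 55.5 in replicate 1 and 35.4 in replicate 2, whereas the other TWEAK sites had 55.1 and 87.5. The other TWEAK sites were chosen by a peak in both of these lists, so their ranks here are not independent of that choice. Ranked by fold, the medians were 7.11 and 1.06 for the 246 sites and 59.5 and 87.4 for the other TWEAK sites. In replicate 1, 39 of the sites lay above the 90th percentile by q-value, and in replicate 2 there were 8. Median folds were 2.94 over the 176 sites with a peak in replicate 1 and 2.67 over the 96 in replicate 2.

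By sequence class, a peak in both TWEAK lists was found at 34 of 111 tandem repeat sites (30.6%), 22 of 68 GGAAT sites (32.4%), 26 of 58 sites of the other repeated class (44.8%) and 7 of 9 single-copy sites. In replicate 1 the tandem repeat and GGAAT sites had median folds of 2.70 and 2.54, the other repeated sites 4.40 and the single-copy sites 17.1. In replicate 2 the medians were 2.61, 1.90, 2.88 and 14.4. Single-copy sites had the highest class medians in both TWEAK lists, with median percentiles by q-value of 94.8 and 94.9, but individual folds of the classes overlapped, from 1.48 to 31.3 for single-copy and from 1.57 to 55.6 for other repeated sites in replicate 1.

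Of the 6 largest clusters, the median fold differed most between the TWEAK replicates in that on chromosome 21. Its 30 sites had median folds of 2.69 and 2.68 before TWEAK. In TWEAK replicate 1 all 30 had a peak, with a median fold of 30.2 (2.94 to 55.6) and a median percentile of 99.5. In TWEAK replicate 2, 16 had a peak, with a median fold of 2.90 (1.60 to 20.6). The replicate 1 values belong to wide peaks that cover several sites at a time: chr21:8209452-8222145 (12694 bp, fold 55.6, rank 1) covered 3 sites, chr21:8432208-8449302 (17095 bp, fold 50.3, rank 2) covered 3, and chr21:8392352-8407874 (15523 bp, fold 38.0, rank 4) covered 5. The median width of all peaks in that list was 283 bp. In the ETS1 KD lists the cluster had peaks at 3 and 18 sites for guide 1 and at 17 and 19 for guide 2, with median folds from 3.04 to 4.47. Among the p52 lists the median fold of this cluster was above 5 in TWEAK replicate 1 alone.

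Of the sites without a TWEAK peak, the 10 with the best untreated rank included chr1:143263390-143263791, chr16:34582969-34583742 and 3 sites of the chromosome 1 array between positions 124164214 and 124679459, with untreated folds between 1.52 and 3.22. A site in an intron of TTC34, chr1:2652197-2652519, had untreated folds of 5.78 and 4.68 and no TWEAK peak. Of the 63 sites with no peak in the control TWEAK lists, 44 had none in the ETS1 KD p52 lists either. Only 3 sites had no peak in any list other than the untreated p52 lists.

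In TWEAK-treated ETS1 KD cells a p52 peak was present in both lists at 65 sites for guide 1 (26.4%) and at 77 for guide 2 (31.3%). For the other TWEAK sites these shares were 39.3% and 74.2%, and for single-list sites 3.34% and 7.64%. The other TWEAK sites were chosen for a p52 peak in both control TWEAK lists, which the 246 sites were not. Guide 1 replicate 1 is the shortest p52 TWEAK list (1387 peaks), and replicate 2 of that guide alone had a peak at 80.1% of the other TWEAK sites and at 102 of the 246 (41.5%). Median percentiles of the sites by q-value were 30.6 and 39.6 for guide 1 and 34.5 and 44.9 for guide 2, with median folds from 2.03 to 2.51. In all 8 p52 lists a peak was found at 33 sites.

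The antibody against ETS1 returned peaks at most of the sites. Both ETS1 lists of untreated cells had a peak at 197 sites (80.1%, 74.5 to 84.9) and both lists of TWEAK-treated cells at 193 (78.5%). All 4 ETS1 lists had a peak at 172 sites (69.9%), and at least 1 had a peak at 242 (98.4%). Single-list sites had a peak in both lists at 27.2% and 22.4%, and the other TWEAK p52 sites at 1.77% and 2.02%. ETS1 is a winged helix-turn-helix factor that binds GGAA cores. A GGAA lies within each GGAAT unit, but whether ETS1 bound these units was not tested. The share with both untreated ETS1 lists was 76.6% in tandem repeat, 86.8% in GGAAT and 81.0% in other repeated sites, and 6 of 9 in single-copy sites.

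The sites ranked high within the ETS1 lists by q-value, with median percentiles of 84.9 and 80.3 before and 83.6 and 85.5 after TWEAK. Above the 90th percentile were 88, 70, 88 and 90 sites. By fold they ranked low, with median percentiles of 11.99, 13.1, 7.17 and 9.51 and median folds from 2.67 to 2.90. Values of the same sites in the untreated p52 lists were of the same size (2.75 and 2.79). Of the 89 sites with peaks in both TWEAK p52 lists, 83 were in all 4 ETS1 lists. Of the 63 sites without a p52 peak in the control TWEAK lists, 59 had an ETS1 peak in at least 1 list.

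RNA polymerase II peaks were rarer at the sites. In control cells both lists had a peak at 36 sites before TWEAK (14.6%) and 50 after it (20.3%). With a peak in either list the order turned, with 124 sites (50.4%) before and 89 (36.2%) after TWEAK, and replicate 1 had a peak at 113 sites before TWEAK against 47 in replicate 2. The counts in both lists were 49 with ETS1 KD (19.9%) and 45 with NFKB2 KD (18.3%). The other TWEAK sites had 15.1%, 20.5%, 16.02% and 11.5% in the same order. These are lists of 11175 to 44672 peaks. All 8 lists had a peak at 23 sites and none at 81. In untreated replicate 1 a peak was present at 58 of 68 GGAAT sites and in untreated replicate 2 at 15. The chromosome 21 cluster had polymerase peaks at 4 and 3 sites before and at 11 and 6 sites after TWEAK, and at none in the ETS1 KD and NFKB2 KD lists. The chromosome 1 array had 16 and 1 before and 4 and 3 after TWEAK, 5 and 1 with ETS1 KD and 0 and 13 with NFKB2 KD.

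**Figure D4:**
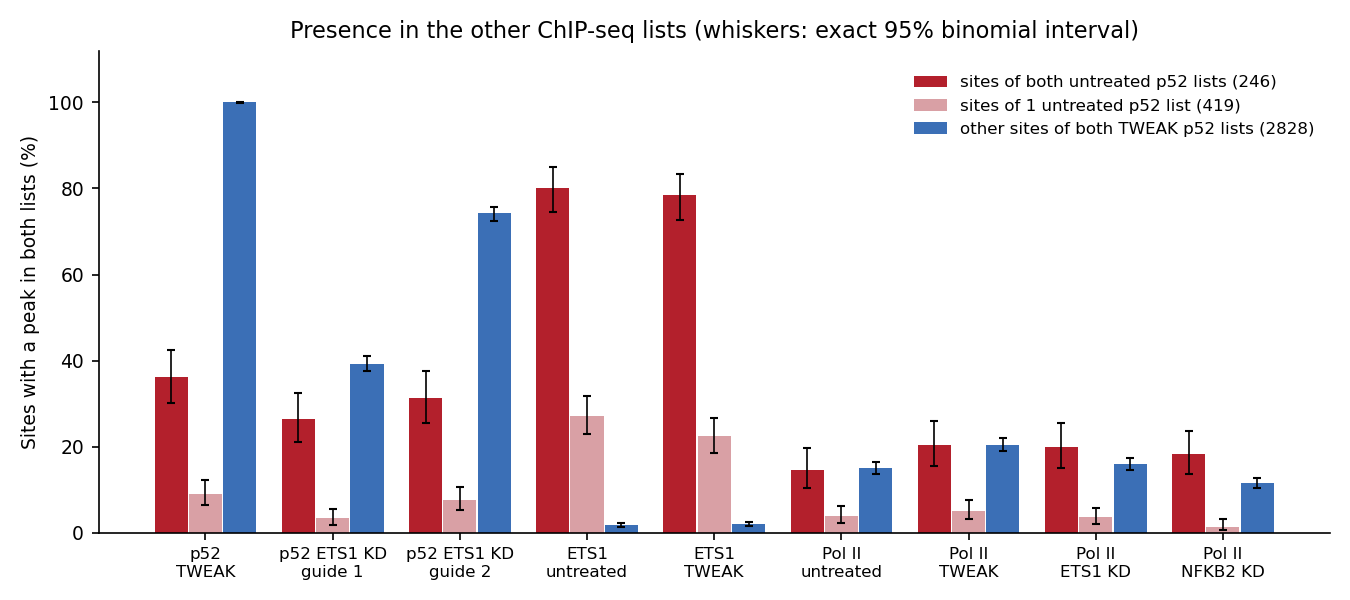
Percent of the sites (y axis) with a peak in both lists of each ChIP group (x axis), for the 246 sites, the single-list untreated sites and the other TWEAK p52 sites, with exact 95% intervals as whiskers. The 246 sites are highest in the ETS1 groups (80.1% and 78.5%), where the other TWEAK sites are at 1.77% and 2.02%, and the other TWEAK sites are at 100% in the p52 TWEAK group by their definition.

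A peak in all 20 lists, whatever the antibody or treatment, was found at 9 sites. Of these, 5 were in the chromosome 5 cluster, and others were in the chromosome 4, 12 and 16 repeats and at chr5:10169-11123, beside the end of the short arm of chromosome 5. This last site had untreated p52 folds of 2.08 and 1.72 and TWEAK p52 folds of 4.90 and 3.30. Its RNA polymerase II folds were 16.1 and 16.7 before and 5.53 and 13.6 after TWEAK. The median site was in 10 of the 20 lists.

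The 9 single-copy sites are described one by one, and those other than the PGK1 and EEF1A1 promoters and chr3:93470456-93470711 were chosen after their values were seen. The site with the highest fold in untreated replicate 1 was at the promoter of PGK1, which encodes the glycolytic enzyme phosphoglycerate kinase 1 (chrX:78103802-78104338). Its p52 folds were 24.0 and 8.37 in untreated cells, 31.3 and 65.8 after TWEAK, 20.2 and 89.1 in ETS1 KD guide 1 and 158 and 508 in guide 2. The untreated and TWEAK folds did not overlap, but each list has its own depth and background. It ranked 1 and 6 before and 3 and 1 after TWEAK, and 40, 4, 2 and 3 in the knockdown lists. ETS1 folds were 17.2 and 3.34 before and 7.85 and 17.0 after TWEAK, and RNA polymerase II had a peak in 1 untreated list (5.63) and 1 TWEAK list (6.73).

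At RNU6-1 (chr15:67840041-67840278) folds were 3.83 and 5.93 in untreated cells and 26.04 and 49.4 after TWEAK. In the knockdown cells they were 18.7 and 122 for guide 1 and 129 and 324 for guide 2. All 6 TWEAK lists were above both untreated lists, and as at PGK1 the highest values were those of guide 2. ETS1 had no peak there before TWEAK and folds of 4.75 and 10.9 after it. The vector lentiCRISPRv2 carries a U6 promoter for the guide and a short EEF1A1 promoter for Cas9, and human PGK1 promoters are common in other lentiviral vectors. Peak lists cannot tell reads of a vector copy from those of the chromosome, and the part of such copies in these values was not tested.

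The EEF1A1 promoter, at the gene of translation elongation factor 1 alpha 1 (chr6:73520114-73521205), had p52 folds of 6.82 and 14.96 in untreated cells and 17.1 and 24.1 after TWEAK. The knockdown folds were 14.5 in 1 of 2 guide 1 lists and 9.10 and 17.7 for guide 2. RNA polymerase II peaks were present in all 8 lists, with folds of 30.03 and 49.6 before TWEAK, 77.6 and 47.9 after it, 52.9 and 47.3 with ETS1 KD and 46.1 and 20.997 with NFKB2 KD. The site was in 19 of 20 lists. Over the whole site, though not in the 200 bp around its summit, it held 1 match to the κB consensus.

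The NPAS4 site (chr11:66421624-66421967) lies 705 bp from the start of a gene for a neuronal activity-dependent transcription factor. Its folds were 10.4 and 9.55 in untreated cells and 22.2 and 39.3 after TWEAK. In the knockdown cells they were 25.9, 36.1, 24.9 and 21.2, so all 6 TWEAK lists were above both untreated lists. As at PGK1, each list has its own depth and background. No RNA polymerase II list had a peak at the NPAS4 site and 1 ETS1 list did (3.804). The summit region held none of the motifs searched.

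A site at HBB, the beta-globin gene (chr11:5224902-5226139), had the largest gap between the untreated replicates, with folds of 9.70 and 95.8. After TWEAK the folds were 5.10 and 4.64, and in the knockdown lists a single peak of 8.74 was found. ETS1 folds were 3.802 and 14.6 before and 27.3 and 4.74 after TWEAK, so the high value changed replicate between groups. The remaining single-copy sites had low folds throughout, and some lay close to the limits of the repeat classes. The chromosome 16 site held 6 copies of GGAAT, against the limit of 8. The chromosome 3 site had 39.7% equal bases at the tandem repeat lags, against the limit of 40%. At chr3:93470456-93470711 the TWEAK folds were 1.48 and 1.23 and no knockdown list had a peak. At chr16:34586513-34586943, p52 folds ran from 1.67 to 2.16 over all 8 lists. At chr20:47894856-47895380 the untreated folds were 3.397 and 2.59, with a TWEAK peak in replicate 2 alone (2.92), and at chr15:20340361-20341114 they were 3.32 and 3.54 with no TWEAK peak.

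**Figure D5:**
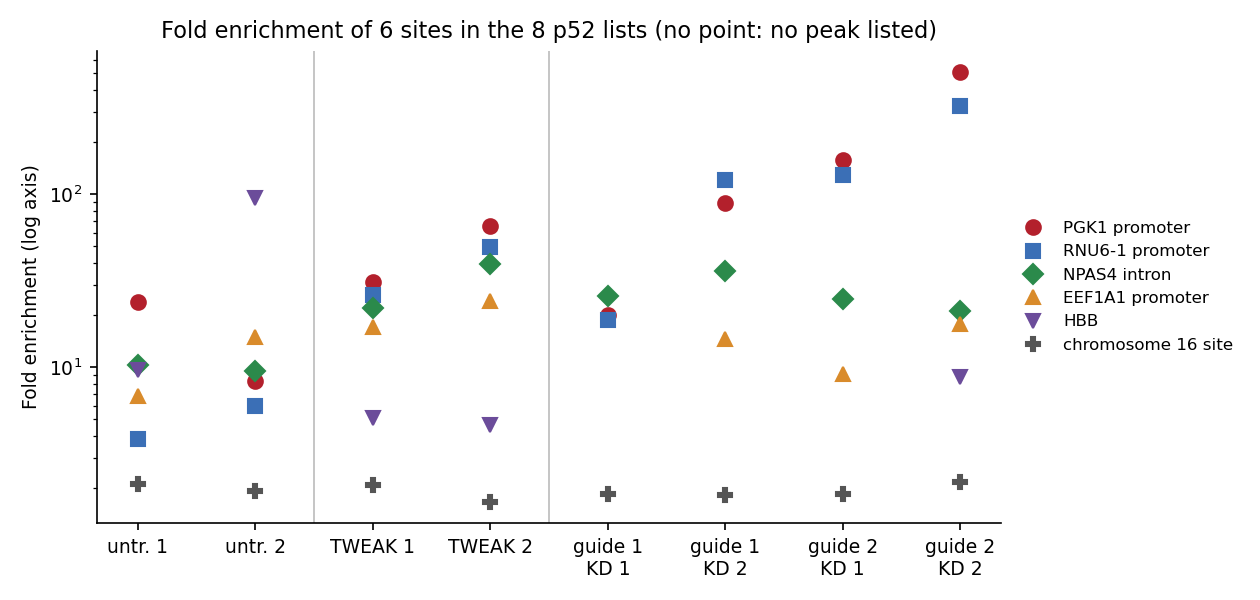
Fold enrichment (y axis, logarithmic) of 6 single-copy sites in each of the 8 p52 lists (x axis), with no point where no peak was listed. PGK1 and RNU6-1 are at 24.0 or less in the untreated lists and at 508 and 324 in the second list of guide 2, while the chromosome 16 site stays between 1.67 and 2.16.

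Few genes near the sites gave RNA to measure. Within 10 kb of 56 of the sites lay the start of 74 annotated genes, of which 10 were protein-coding, and 51 of the 74 had a summed count of 0 over the 12 libraries, which held 28384201 to 40192606 counts each. The libraries were prepared from polyadenylated RNA, which leaves out most small nuclear and ribosomal RNA. The level was sufficient for a test at 6 genes: PGK1, EEF1A1, PHRF1, ACTN2, the lncRNA ROCK1P1 and the pseudogene RPL23AP49. HBB had 0 or 1 count per library, NPAS4 0 to 7, and HBD and DUX4 had none.

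None of the 6 genes passed the edgeR quasi-likelihood test after Benjamini-Hochberg adjustment over all 16879 genes in any comparison. Of all tested genes, 1.55% were higher and 1.53% lower in TWEAK than untreated control cells, 0.255% higher and 1.13% lower in ETS1 KD than control cells, both with TWEAK, and 0.00592% higher and 0.0237% lower in NFKB2 KD cells. At an unadjusted p under 0.05 the 6 genes gave 0, 2 and 0 in the 3 comparisons with edgeR, and with DESeq2, which also called none, 1, 2 and 0. The 2 with edgeR were ACTN2 and PGK1 in ETS1 KD cells. Libraries are called biological replicates in the study's methods.

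PGK1 mRNA was at 787, 771 and 821 CPM (counts scaled to library size with TMM) in untreated control cells and at 769, 665 and 807 in TWEAK-treated ones, which overlap (log2 difference −0.09 ± 0.15 SE, adjusted p = 0.869 by edgeR). In ETS1 KD cells it was at 988, 1011 and 975, above every control TWEAK library, with a log2 difference of 0.41 ± 0.15 and an edgeR adjusted p of 0.263. In NFKB2 KD cells it was at 766, 1051 and 648. EEF1A1 mRNA was at 6684, 6389 and 5358 CPM in untreated cells and 7975, 6191 and 5845 after TWEAK, with a log2 difference of 0.12 ± 0.15 and an edgeR adjusted p of 0.811. ACTN2, which encodes a sarcomeric alpha-actinin and had 113 counts in all 12 libraries, was at 0.395, 0.249 and 0.666 CPM in control TWEAK and 0.0587, 0.0613 and 0.172 in ETS1 KD cells (log2 difference −2.11 ± 0.62, edgeR adjusted p = 0.148). The first of these groups lay above the second without overlap.

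Few genes of any kind lay within 10 kb of a site (74, of which 10 were protein-coding), and the counts for gene lists are to be read against that. None of 25 NF-κB pathway genes, 40 NF-κB target genes, 17 ETS family genes, 12 AP-1 genes and 192 ribosomal protein and histone genes had one of the 246 sites within 10 kb. Other TWEAK p52 sites lay within 10 kb of 14, 14, 4, 5 and 13 of them. With TWEAK, 14 of 25 tested pathway genes were higher and none lower, with a median log2 difference of 0.60 against 0.02 over all tested genes. Over all tested genes, 1.55% were higher and 1.53% lower with TWEAK. Of target genes 16 of 37 were higher and none lower (median 0.66), of ETS genes 2 of 15 (0.15), of AP-1 genes 2 of 11 (0.17) and of ribosomal protein and histone genes 0 of 132 (0.11). The genes lower in ETS1 KD cells were 1 of 25, 4 of 37, 1 of 15, 1 of 11 and 2 of 132. These counts are in the same list order, and the share over all tested genes was 1.13%. ETS1, the gene targeted, is itself the 1 ETS family gene and is also 1 of the 4 target genes counted. In ETS1 KD cells 1 of 37 target genes was higher, against 0.255% of all tested genes. In NFKB2 KD cells 2 of 25 pathway genes were lower, against 0.0237% of all tested genes. NFKB2, the gene targeted, is itself 1 of these 2.

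The targeted genes were checked in the RNA-seq libraries. NFKB2 was at 49.6, 54.5 and 66.6 CPM in untreated control cells, 235, 289 and 346 after TWEAK and 75.6, 92.6 and 105 in NFKB2 KD cells with TWEAK. The log2 differences were 2.35 for TWEAK (edgeR adjusted p = 2.92e-05) and −1.67 for the knockdown (0.00339). ETS1 was at 42.0, 41.3 and 45.1 CPM before and 71.9, 73.1 and 87.6 after TWEAK and at 28.2, 33.0 and 37.8 in ETS1 KD cells (log2 −1.23, edgeR adjusted p = 0.00112). Of the markers of this glioma line, VIM was at 9267 to 16793 CPM, CD44 at 1120 to 2569, FN1 at 403 to 2857, NES at 74.9 to 148 and CHI3L1 at 55.1 to 393. The leukocyte gene PTPRC had 0 to 3 counts, CDH1 0 to 4 and the astrocyte gene GFAP 2 to 13, with EPCAM at 26 to 61, PECAM1 at 23 to 58, MBP at 27 to 73 and OLIG2 at 18 to 61 counts.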

How the data were processed

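The authors trimmed ChIP reads with Trimmomatic, aligned them with Bowtie2 (hg38), ran MACS2 with input subtraction for peak calling and removed blacklisted regions with bedtools. Whether the deposited lists are from before or after that removal was not checked here. Each deposited list covers 1 library and gives, per peak, a fold enrichment, a −log10 p-value and a −log10 q-value; depth is unknown from these lists. The deposited RNA-seq values are raw gene counts that the authors made with STAR and featureCounts (62696 rows). The 3 input samples were not analysed here. The members and gene lists were chosen with earlier results of these data known.

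Sites were built, looked up (overlap of at least 1 bp) and ranked with Python 3.11.15, and placed on the GENCODE 44 annotation. Windows of 200 bp around summits were scanned for motifs, and 31-base words were counted over the assembly without alternate contigs. Sites named in the text were the 12 with the best mean rank, those at protein-coding promoters, up to 10 without a TWEAK peak, the 3 weakest members, the 3 strongest single-list sites, and those in all 20 lists or with the κB consensus; others are said to be chosen later. RNA counts were tested with edgeR 4.0.16 (quasi-likelihood, TMM, 16879 genes kept by its expression filter, 12 libraries in a model of 4 groups, Benjamini-Hochberg threshold 0.05), with DESeq2 1.42.0 as an alternative. On simulated counts, the test recovered 74% (TWEAK), 65% (ETS1 KD) and 78% (NFKB2 KD) of log2 changes of 1. Of smaller changes, of the size of the study's own fold cutoff for called genes, it recovered 14%, 15% and 20% in the same order. A gene without a call may therefore still have changed by that much. Intervals are exact Clopper-Pearson at 95% and cover counting error only. The name of 1 gene called under an alternative is not reported here.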

Additional observations from a re-analysis of the deposited data

Results flagged for a closer look

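Outside chromosomes 1 to 22 and X, which were left out of the sites described, the 2 untreated p52 lists shared another 65 merged sites. Over all contigs the lists shared 311 sites. Of the 65, 62 lay on 25 unplaced or unlocalized contigs. These are peaks in data that no comparison above used.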

How the results depend on the processing

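Depth of the ChIP libraries is unknown, and no test was made between groups of peak lists. Values under 203 alternatives of 17 results were computed. Of the 102 alternatives for counts of called genes 98 kept the count of 0, and over all results 147 stayed close to the reported value and 56 moved. Requiring only 1 untreated list gave 665 sites, and leaving out an untreated replicate gave 363 to 554. The 22 sites with a copy number of 1, a subset chosen after seeing the data, had a promoter share of 18.2%, untreated ETS1 peaks at 72.7%, no κB consensus (0%) and a median TWEAK percentile of 79.5. The promoter share was 8.54% with a window of 2000 bp upstream to 500 bp downstream and 0.813% for protein-coding starts. The κB share was 4.47% over whole sites and 0% with the stricter form. Ranking by fold gave a median percentile of 4.09.

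A peak in either list was found for p52 in TWEAK cells at 74.4%, guide 1 at 45.9%, guide 2 at 50.8%, untreated ETS1 at 94.7%, TWEAK ETS1 at 93.9%, untreated RNA polymerase II at 50.4% and TWEAK RNA polymerase II at 36.2%. The results varied below are the shares with a peak in both lists: 36.2%, 26.4%, 31.3%, 80.1%, 78.5%, 14.6% and 20.3% in that order. With equal numbers of the strongest peaks per list they were 3.25%, 8.54%, 7.32%, 69.1%, 63.8%, 5.28% and 6.91%. With summits within 100 bp they moved for p52 in TWEAK cells to 25.6%, guide 2 to 23.2%, ETS1 to 56.1% and 54.9%, and TWEAK RNA polymerase II to 13.8%. Leaving out 1 list gave 20.9 to 71.5% for p52 in TWEAK cells, 13.9 to 41.5% for guide 1, 17.9 to 46.7% for guide 2, 51.99 to 91.5% for untreated ETS1, 47.7 to 87.4% for TWEAK ETS1, 8.48 to 45.9% for untreated RNA polymerase II and 11.7 to 30.9% for TWEAK RNA polymerase II. The cause was not tested.

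Called genes near the sites went from 0 to 1 in 4 alternatives. Without untreated p52 replicate 2 the genes included MAFF (higher with TWEAK) and COL4A2 (higher in ETS1 KD), and with no filter on low counts ACTN2 was lower in ETS1 KD cells (log2 −2.10, edgeR adjusted p = 0.0396). Leaving out an RNA library gave 0 calls throughout, as did the replicate block. Same-numbered RNA libraries did not all deviate together from their group means (correlations from −0.178 to 0.492 for TWEAK, −0.304 to 0.354 for ETS1 KD and 0.0945 to 0.407 for NFKB2 KD), so the numbers were not taken as pairs. The lower-case share of the sites was not run, because the genome used is written in capitals only.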
